A study of Nothobranchius furzeri with 10 samples.

Results

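A set of 171 liver genes reached its highest level in the library titled JG74 and its lowest level in JG82 or JG84, with a wide spread over the 10 libraries of the series. The median member stood at 5.14 log2 CPM in JG74, where CPM is the read count per 1000000 counted reads after library scaling, against -0.73 in JG82 and -0.45 in JG84. The members together held 1.08% of the counted reads of JG74 and 0.0165% of those of JG82. JG81, JG76 and JG83 lay between these ends, with member medians of 3.06, 2.69 and 2.57 log2 CPM.

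The members were chosen on these same values. Of 26739 genes in the count table, 14013 had at least 1 CPM in at least 5 libraries, and 171 of these had a standard deviation of log2 CPM above 1.5, their highest value in JG74 and their lowest in JG82 or JG84. The peak in JG74, the low in JG82 or JG84 and the wide spread are therefore properties of the selection and are described with no test. Every member passed the CPM minimum, since passing it was part of the selection. That minimum was applied to CPM without library scaling.

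The libraries were made from total RNA of liver from male Nothobranchius furzeri, the turquoise killifish, of the inbred strain GRZ, at 10 weeks of age. All 10 carry the perturbation label swim-tunnel, so by label they form 1 group, and none is labelled as resting. How each fish was handled in the tunnel is not stated. The labels do not state whether each library came from its own fish, nor what the numbers in the titles stand for. Counted reads ranged from 13806555 in JG75 to 39405713 in JG81, with 32611432 in JG74, 39170190 in JG82 and 16888685 in JG84, so the libraries at the low end of the members were among the deepest and the shallowest.

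The killifish lives in seasonal pools and is used in research on ageing because of its short life, and GRZ is among its shortest-lived laboratory strains. A swim tunnel holds a fish in a water current against which it has to swim. The liver makes most plasma proteins, stores and releases glycogen and lipid, forms bile and breaks down foreign compounds. In RNA from a whole tissue piece, fewer cells of a type and less RNA per cell cannot be told apart. The gene identifiers are not paired with names in the tables, and 0 of 26739 were found among the 38438 genes of the reference table, so the role of a member, marker genes of liver or of other cell types, and pathway lists are not described here, and no sequence is shown.

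The step from JG74 to the other libraries was large for most members. The level in JG74 exceeded the median of the other 9 libraries by a median of 3.86 log2 units over the members, from 0.90 to 7.30, while the same difference over all tested genes had a median of 0.03. It exceeded the next-highest library by a median of 2.03 log2 units, from 0.01 to 3.56. The gap to the next library was at least 1 log2 unit in 139 of 171 members, against 4.05% of all tested genes, and at least 2 log2 units in 87 members (50.9%), against 1.15% of all tested genes. These backgrounds cannot be read as a test, because 21.6% of tested genes were highest in JG74, 8.76% were also lowest in JG82 or JG84, and 3.46% passed the minimum on the spread, and the members meet all 3 conditions by definition.

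**Figure D1:**
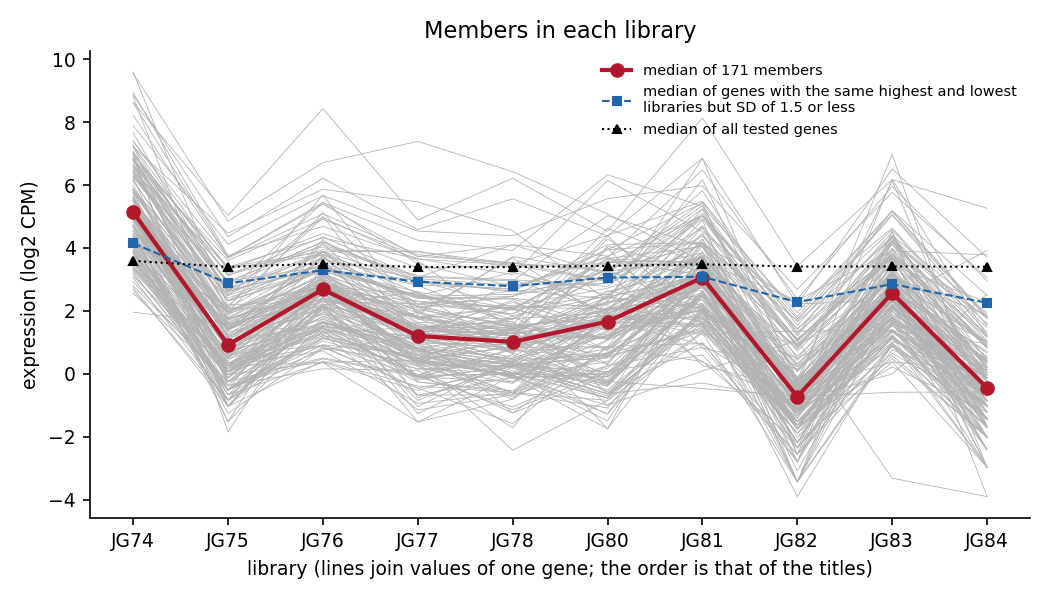
Expression in log2 CPM (vertical axis) in each library (horizontal axis). Grey lines are the 171 members and red points their median, which runs from 5.14 in JG74 to -0.73 in JG82. Blue squares are the median of 1056 genes with the same highest and lowest libraries but a smaller spread, and black triangles that of all tested genes, which stays between 3.39 and 3.59.

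The members' summed reads also took their largest share in JG74, which follows in large part from the selection of genes highest there. The members held 351571 of its reads, a share of 1.08% (exact binomial 95% interval 1.07 to 1.08%, which covers counting error only). The next share was 0.287% in JG81, followed by 0.207% in JG83, 0.202% in JG76 and 0.112% in JG80. JG77, JG78 and JG75 held 0.0734%, 0.0719% and 0.0606%, and JG84 and JG82 held 0.0253% and 0.0165%. The mean share was 0.213 ± 0.316% (SD, n = 10), and 0.117 ± 0.0935% (SD, n = 9) without JG74. No single member carried the share of JG74. The strongest member of that library supplied 6.33% of the members' reads, the leading 10 members supplied 36.5% and the leading 50 supplied 72.5%.

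**Figure D2:**
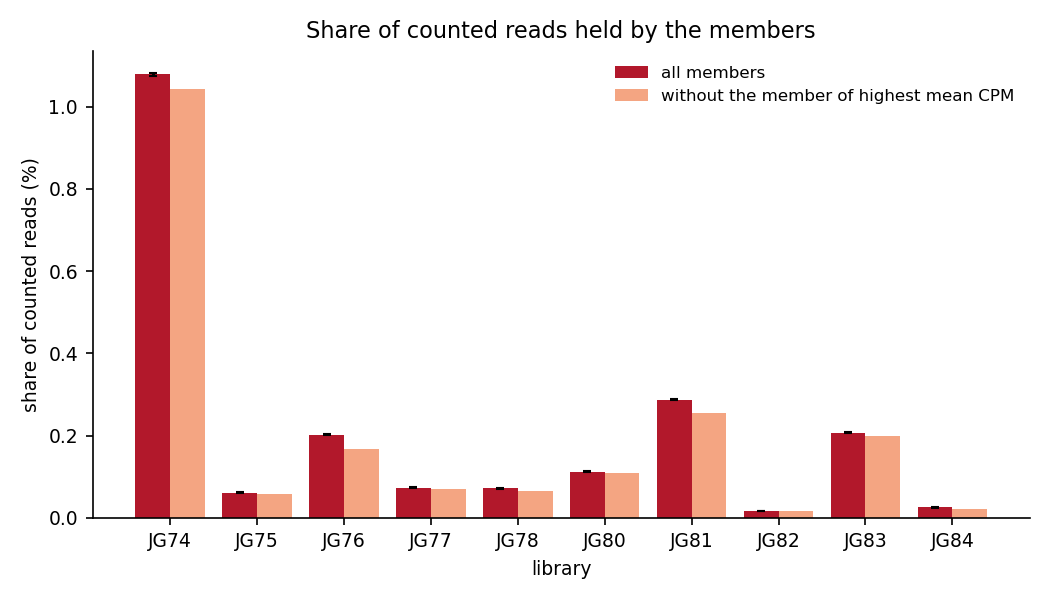
Share of each library's counted reads, in percent, held by all 171 members (dark bars, with exact binomial 95% intervals) and without the member of highest mean CPM (light bars). The bars of JG74 reach 1.08% and 1.04%, and the next highest, of JG81, reach 0.287% and 0.256%.

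The members were moderate to weak transcripts outside JG74. Their medians in the other libraries ran from -0.73 log2 CPM in JG82 to 3.06 in JG81, while that of all tested genes was at least 3.39 in each. Over all 10 libraries, JG74 included, their mean log2 CPM had a median of 1.63, against 3.40 for all tested genes. Per length of gene, with RPKM recomputed from each library's own total, the median member was at 12.3 RPKM in JG74, above the 4.07 RPKM of the median tested gene. Its median over all libraries was 1.16 RPKM, below the 4.04 RPKM of all tested genes. The highest level per length in JG74 was 416 RPKM.

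Low counts limit the lower end of these profiles. The median member had 1013 reads in JG74, 21 in JG82 and 11 in JG84. No member had fewer than 4 reads in JG74, while 12 members had 3 reads or fewer in JG82 and 23 in JG84. A read count of 0 was found for 1 member in JG82 and for 2 in JG84. By CPM without library scaling, 128 members lay below 1 in JG82, 113 did in JG84, and in any other library at most 44 did (JG75). The low in JG82 or JG84 was part of the selection. The share of all tested genes below 1 CPM was not computed, so these counts have no background. A count of 0 allows up to 3 reads, which equal 0.0766 CPM in JG82 and 0.178 CPM in JG84, also without library scaling. Log2 values near this level depend on the prior count of 2 added before the logarithm.

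A coarse order of the other 7 libraries, with JG81, JG76 and JG83 in the upper part, was shared by many members. The selection did not name them, but its minimum on the spread was computed over all 10 libraries. Its CPM minimum, in at least 5 libraries, could also be met through them. Their order is therefore not independent of the selection and is given as a description. Nearly all members had their next-highest value in JG81 (97 members), JG76 (32), JG80 (19) or JG83 (19), and only 4 had it in JG77, JG78 or JG84. Among the 2860 other tested genes that were highest in JG74, the next-highest library was JG81 in 7.73%, JG76 in 24.5%, JG80 in 19.2% and JG83 in 8.57%. In 139 of 171 members JG81 lay above each of JG75, JG77, JG78 and JG80, against 21.9% of all tested genes. In 114 members (66.7%) all of JG81, JG76 and JG83 lay above all of JG75, JG77, JG78 and JG80. This held for 4.97% of all tested genes and 12.1% of the 1056 genes with the same highest and lowest libraries and a smaller spread. Both comparisons follow the order of the members' own medians, which were at least 2.57 log2 CPM in JG81, JG76 and JG83. The medians were at most 1.66 in JG75, JG77, JG78 and JG80. Other genes had no part in that order, so whether the members' shares are high was not tested.

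Neighbours in the order of the medians were not all apart. That order is the members' own, so the shares for these pairs are a description and were not tested. JG81 was above JG76 in 128 members (background 47.9% of tested genes) and JG83 was above JG80 in 134 (background 46.5%). JG76 and JG83 had medians of 2.69 and 2.57 and could not be ordered: JG76 was above JG83 in 87 of 171 members (50.9%), against 50.6% of all tested genes. JG80, JG77, JG78 and JG75 followed with medians of 1.66, 1.20, 1.02 and 0.92 log2 CPM and overlapping member ranges. JG80 was above JG77 in 100 members (58.5%, background 51.6%) and JG78 above JG75 in 93 (54.4%, background 50.1%), both near the background. JG77 was above JG78 in 113 members (66.1%, background 49.3%). Both JG82 and JG84 were below the other 8 libraries in 136 members (79.5%), against 6.56% of all tested genes and 40.4% of the genes with the same highest and lowest libraries and a smaller spread. The selection had already placed JG82 or JG84 lowest in every member, which held for 22.4% of all tested genes. These shares are therefore a description and no test. The lowest library itself was JG82 in 105 members and JG84 in 66.

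**Figure D3:**
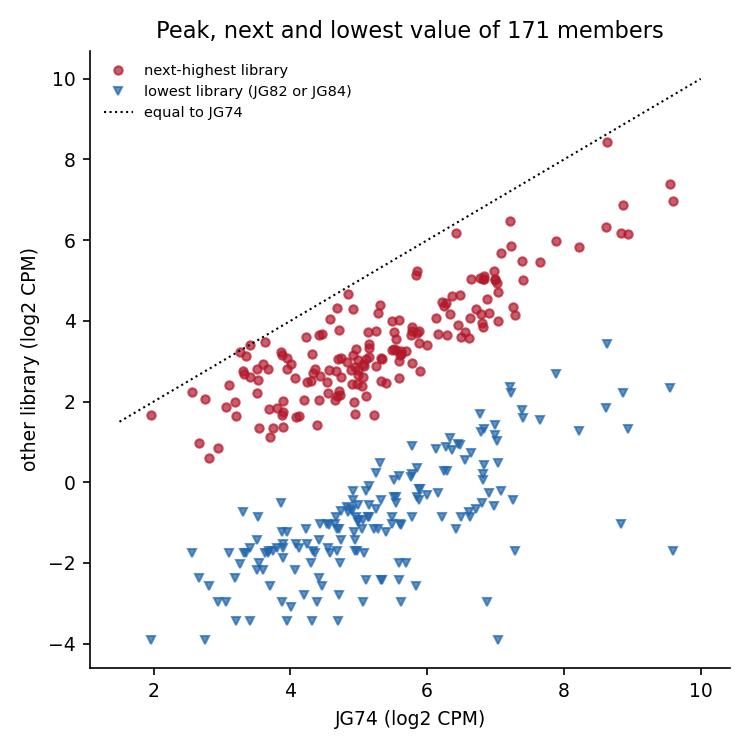
Level of each of the 171 members in JG74 (horizontal axis, log2 CPM) against its next-highest library (red circles) and its lowest library (blue triangles), both in log2 CPM on the vertical axis. Circles lie a median of 2.03 log2 units under the dotted line of equality, and the closest lies 0.01 under it.

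Members were also grouped by their next-highest library, a grouping that by itself fixes a high level in that library. The 97 members with JG81 next had medians of 5.25 log2 CPM in JG74, 3.23 in JG81, 2.76 in JG83 and 2.69 in JG76. The 32 members with JG76 next stood at 4.62 in JG74, 2.78 in JG76 and 2.49 in JG81, but at 1.63 in JG83, and 29 of them were lowest in JG82. The 19 members with JG83 next had 3.26 in JG83 and 3.08 in JG81, and the lowest median in JG75 of these classes, at -0.25.

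The 19 members with JG80 next had a median in JG80, the library that defines them, of 3.65 log2 CPM, while it was between 1.25 and 1.38 in the other 3 classes. In JG81 they stood at 2.11, which the grouping holds below their level in JG80, and in JG75, which defines no class, at 1.25. Their share of the reads of JG74 was 0.154%, close to the 0.151% of the class with JG83 next, and the class with JG81 next held 0.557%.

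**Figure D4:**
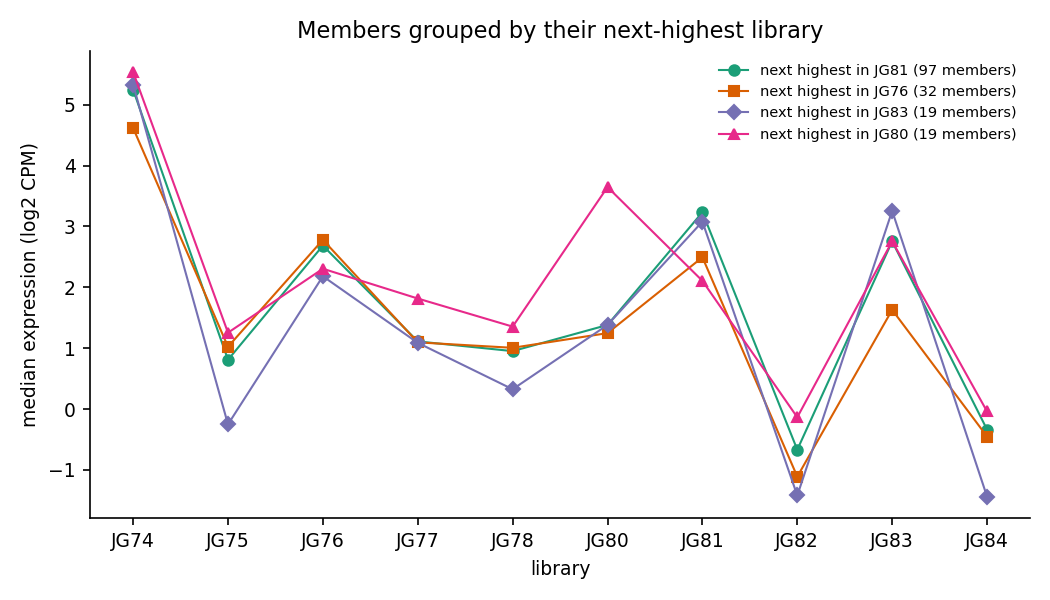
Median expression in log2 CPM (vertical axis) in each library (horizontal axis) for members grouped by the library with their next-highest value. The class with JG80 next reaches 3.65 there, while the other classes lie between 1.25 and 1.38. The 4 members with another next library are left out.

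Hierarchical grouping of the members by Pearson correlation (average linkage, height 0.3) left 163 of 171 in 1 group. The correlation was taken over all 10 libraries, including JG74, JG82 and JG84. That most members fell in 1 group therefore follows in large part from the selection. A group of 7 members had another course, with medians of 6.80 log2 CPM in JG74 and 3.15 to 3.95 in JG75, JG76, JG77 and JG78, but 1.24 in JG81 and 1.38 in JG83. Its medians were 2.33 in JG80, 0.51 in JG82 and 0.96 in JG84, so all of JG80 to JG84 had medians below all of JG74 to JG78. In all 7, JG77 was above JG81, which held for 3 of the 163. These 7 genes held 0.112% of the reads of JG74. The single remaining member was at 1.96 log2 CPM in JG74, at 1.67 in JG78 and at -3.32 in JG83, and had the lowest level of any member in JG74.

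The members' profiles were alike over the libraries that the selection did not name. Over all 10 libraries the median Pearson correlation of log2 CPM among the 14535 pairs of members was 0.90, to which the shared peak and low contribute. Over the 9 libraries without JG74 it was 0.84. Over the 7 libraries other than JG74, JG82 and JG84 it was 0.74, with 10.9% of pairs below 0. For the genes with the same highest and lowest libraries and a smaller spread, the median over the same 7 libraries was 0.13, and for pairs among 2803 tested genes spaced evenly through the table it was 0.00. Low spread weakens a correlation, and the members were chosen for high spread, so these medians are not set on an equal footing. All pairs also share the same 7 libraries with their depths.

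The members' spread was also computed without JG74. A high value there follows in large part from the selection, since the spread was chosen over all libraries and JG82 and JG84 remain, so it is given as a description. The median SD over the other 9 libraries was 1.41 log2 CPM, against 0.40 for all tested genes. All 171 members kept an SD above 1 there, and 66 kept one above 1.5. Over the 7 libraries that the selection did not name the median SD was 1.02, against 0.38 for all tested genes, and 27 members exceeded 1.5. The shares of all tested genes above these SD limits over 9 or 7 libraries were not computed, so the counts have no background.

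Spread and level differed among the members. The SD of log2 CPM lay between 1.5 and 2 in 122 members, between 2 and 2.5 in 44 and above 2.5 in 5. The 5 widest members were at a median of 7.28 log2 CPM in JG74, 4.55 in JG83 and 4.15 in JG81, against -1.15 in JG82 and -1.70 in JG84. All 5 were lowest in JG84, but with only 0 to 7 reads there and 1 to 32 in JG82, so which was lowest rested on few reads. JG83 was the next-highest library in 3 of them, which held for 5 of the 122 members with the smallest spread. In those 122 members the medians were 4.98 in JG74, -0.56 in JG82 and -0.13 in JG84.

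The 4 members given by identifier were each first by 1 measure. Nfu_g_1_004782 had the highest mean level, 130 CPM, and also the highest level per length in JG74. It had 11438 reads in JG74, 10187 in JG76 and 12395 in JG81, and its lowest count was 416 in JG82. Its log2 CPM was 8.64 in JG74, 8.43 in JG76 and 8.14 in JG81, with a median of 5.72 over the 10 libraries and a lowest value of 3.42 in JG82. These 3 libraries were close together, and the other 7 lay below all of them, the nearest at 6.22 in JG78.

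Nfu_g_1_009838 had the widest spread, with an SD of 3.54 log2 CPM. Its level was 7.04 log2 CPM in JG74, with 3780 reads. JG83 and JG81 followed with 480 and 643 reads, at 4.004 and 3.87 log2 CPM. JG76 had 202 reads, JG77, JG78 and JG80 had 33, 37 and 18, and JG75, JG82 and JG84 had 3, 1 and 0. The libraries thus fell into JG74 alone, an intermediate set of JG81, JG83 and JG76, and 6 libraries with at most 37 reads each. The median over the libraries was 0.25 log2 CPM.

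Nfu_g_1_024371 was named for its gap between JG74 and the next library, the widest among the members at 3.56 log2 units, or 11.8-fold. It had 1071 reads and 5.22 log2 CPM in JG74, a median of 0.94 and a lowest value of -1.15 in JG82. The other 9 libraries held from 7 reads in JG84 to 127 in JG81, and JG80 was highest among them at 1.66 log2 CPM. The Pearson correlation with the members' median profile was 0.94 over the 10 libraries.

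Nfu_g_1_002348 had the profile closest to the median profile of the members, with a Pearson correlation of 0.99 over the 10 libraries, to which it belongs itself. Its levels were 7.38 log2 CPM in JG74, 5.49 in JG81, 5.16 in JG83 and 5.09 in JG76. It had 4.40 in JG80, between 3.48 and 3.79 in JG75, JG77 and JG78, 1.81 in JG82 and 1.79 in JG84. The read counts behind these ends were 4791 in JG74, 135 in JG82 and 56 in JG84, so the profile did not rest on counts near 0.

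**Figure D5:**
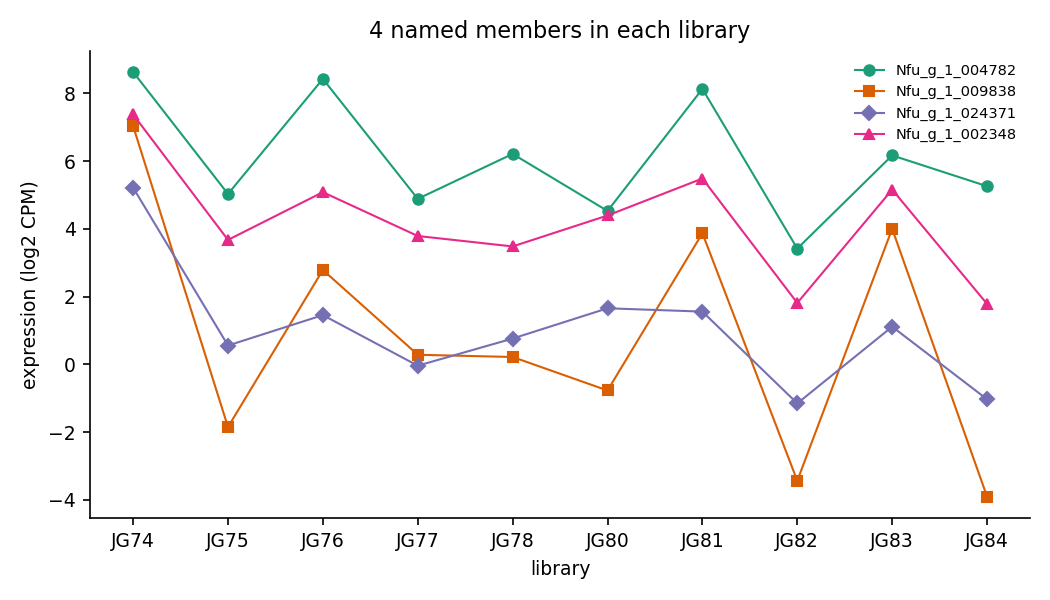
Expression in log2 CPM (vertical axis) of the 4 members given by identifier in each library (horizontal axis). Nfu_g_1_004782 is almost as high in JG76 (8.43) and JG81 (8.14) as in JG74 (8.64), while Nfu_g_1_024371 is high only in JG74, at 5.22 against at most 1.66 elsewhere.

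Some genes fell narrowly outside the selection. The member with the smallest spread had an SD of 1.51 log2 CPM, and the nearest gene outside had 1.499, with 6.11 in JG74 and 1.18 in JG82. The member with the narrowest peak was at 3.41 in JG74 and at 3.40 in JG76, and the nearest gene outside was at 5.53 in JG74 and at 5.55 in JG80. Another 20 genes had the spread and the peak in JG74 but another lowest library, and in the closest of them JG84 was 0.06 log2 units above the lowest library, JG83. The most abundant of these 20 in JG74 was at 14.25 log2 CPM there, took 1.72% of the reads of JG74, more than all members together, and was at 5.71 in the next library, JG76. It was left out because its value in JG75, at -0.14, was below the 0.05 of JG84.

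Many genes outside the selection followed the same course with a smaller amplitude. A Pearson correlation above 0.9 with the median profile of the members was found for 141 members (82.5%) and for 2.29% of all tested genes, which left 180 genes that are no members. Of those 180, 178 had an SD of 1.5 or less, with a median SD of 1.08 over the 180. The median profile was built from the members, which were chosen for a shared peak and low. Their own share of 82.5% follows in large part from that and is no test. An opposite course was also found. A correlation below -0.8 was found for 151 genes, or 1.08% of tested genes, and one below -0.9 for 11 genes, or 0.0785%. The 11 genes had a median of 3.61 log2 CPM in JG74 against 4.82 in JG82 and 4.76 in JG84, and SDs of at most 0.64.

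Gene length and place in the table were not used by the selection. The gene length implied by the deposited counts and RPKM had a median of 2730 bases in the members and of 2885 bases in all tested genes. Lengths under 1000 bases were found for 22 members (12.9%), against 15.4% of all tested genes. In the order of the table, 19 members (11.1%) had another member in a neighbouring row, and of the 171 genes with an SD above 1.5 that were highest in JG76, 16 (9.36%) had another gene of that set there. In larger sets, the share was 10.8% among the 314 other genes with an SD above 1.5, which include those highest in JG76. No share for genes drawn at random from the table is given here, so whether these shares are high was not tested. It was 14.5% among the 1056 genes with the same highest and lowest libraries and a smaller spread. The 10 pairs of members in neighbouring rows had Pearson correlations of 0.84 to 0.99 over the 10 libraries, with a median of 0.97, and a median of 0.95 without JG74. One of these pairs held Nfu_g_1_009838, with a correlation of 0.99. Over all 14535 pairs of members the median was 0.90, and 0.84 without JG74. Whether neighbouring rows are neighbours in the genome is not stated, and the counting options are not given, so how the authors' counting treats overlapping or near-identical genes in such rows is unknown.

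Few members were parted by the runs of numbers in the titles. The numbers run from 74 to 78 and from 80 to 84, and the labels do not say whether the runs differ in any other way. All of JG74 to JG78 were above all of JG80 to JG84 in 4 members (2.34%), against 6.6% of all tested genes. Among the 1056 genes with the same highest and lowest libraries and a smaller spread it was 10.2%. The reverse, found for 9.58% of all tested genes, cannot occur in a gene that is highest in JG74. Within JG74 to JG78 the member medians spanned 0.92 to 5.14 log2 CPM, and JG76 was next after JG74 at 2.69. Within JG80 to JG84 the medians spanned -0.73 in JG82 to 3.06 in JG81. The selection placed the peak in the first run and the low in the second. Wide spans within both runs therefore follow in large part from the selection.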

How the data were processed

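The authors deposited whole-number read counts per gene. Demultiplexing with bcl2fastq 1.8.4, alignment with STAR 2.4.1d and counting with featureCounts 1.4.6-p4 are named in the submitters' processing notes. No source used here gives the genome build, the annotation or how featureCounts was set. RPKM values deposited by the authors apply the library totals in rotation down the rows: for 3039 genes above 5 RPKM throughout, the implied length varied by 0.00122% (median coefficient of variation) under rotation and by 52.0% with each library's own total. They served only for gene lengths.

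TMM scaling factors came from edgeR 4.0.16 (R 4.3.3), with a prior count of 2 for log2 CPM. Values within 1e-06 were treated as tied. The selection steps were tried on simulated counts with planted genes of the same pattern, which checks the steps and says nothing about the members. The members and all lists were chosen with earlier results of these data known. With 1 group there is no contrast and no p-value. The printed identifiers are 4 members, those with the highest mean CPM, SD, gap to the next library and correlation with the median profile. Marker and pathway lists could not be matched to identifiers and gave no value. Alternatives included DESeq2 1.42.0 size factors.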

Additional observations from a re-analysis of the deposited data

Results flagged for a closer look

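Of 7 per-library values examined (the members' share of reads with and without the leading member, their median level and the 4 genes given by identifier), 3 had 1 library far from the other 9. The criterion marks about 1 in 20 by chance, a rate that does not apply to values chosen for a peak. Since the members were chosen for a peak in JG74, these marks describe the size of that peak only, and only for the 3 values marked. Taken 1 by 1, just 6 of 171 members (3.51%) met the criterion with JG74 as the far library. The share was 2.5% for all tested genes. For the 1056 genes with the same highest and lowest libraries and a smaller spread it was 13.4%. The criterion divides the gap to the next library by the whole range of a gene. The selection for a wide spread and a low in JG82 or JG84 widens that range in the members. Their count is therefore near its background and is no measure of how far JG74 stood from the other libraries. The share of reads held by the members was 1.08% in JG74, and the next was 0.287%. Without the member of highest mean CPM the share was 1.04%, and the next was 0.256%. Nfu_g_1_024371 was at 5.22 log2 CPM in JG74, and the next library was at 1.66.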

How the results depend on the processing

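Median-ratio size factors gave 169 members, prior counts of 0.5 and 5 gave 184 and 155, and counts thinned to the smallest library gave 158, of which 148 were among the 171. The number moved to 373 and 49 with a minimum SD of 1 and 2, to 56 with at least 5 CPM (fewer genes tested) and to 271 with no CPM minimum (more genes tested). The members' share of JG74 moved to 6.38% with a minimum SD of 1, which admits more genes, and to 0.480% with a minimum of 2. With 1 library other than JG74 left out, the selection gave 111 (without JG82) to 189 members (without JG75). Without JG74, an alternative chosen after seeing the data, 66 of the original 171 members kept their spread and their low, a count within the members and not a new selection. The share in JG74 of the genes then selected ran from 0.991% (without JG84) and 1.01% (without JG82) to 3.13% (without JG75), and was 2.12 to 2.42% without JG76, JG77, JG78, JG80, JG81 or JG83. The share of the original members in JG74 uses no other library, so the higher values reflect genes that entered. Without JG84 and JG82, 147 and 110 of the original members were selected, and the lower values go with the members lost. CPM without a scaling factor, also chosen after seeing the data, gave 166 members. It moved the median of all tested genes in JG74 against the other libraries from 0.03 to -0.16 log2 units. The members' median gap from JG74 to the next library went from 2.03 to 1.71 log2 units. The scaling factors ran from 0.872 in JG77 to 1.12 in JG81, with 0.885 in JG74. By RPKM recomputed from each library's own total, 165 of the 171 members were highest in JG74. The median height of the peak over the other 9 libraries was 3.28 to 4.59 log2 units and over the next library 1.71 to 2.28, under 8 alternatives to the settings. No paired analysis was possible because all libraries form a single group. The lowest values, in JG84 and JG82, rest on the fewest reads, with a median of 11 and 21 per member, although JG82 was among the deepest libraries.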
